A study of Macaca mulatta with 24 samples.

Results

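The genes described here encode enzymes that act on ethanol, on acetaldehyde and on acetate: ADH5, CAT and CYP2E1 for the oxidation of ethanol, ALDH2, ALDH1A1, ALDH1B1, ALDH3A2 and ALDH7A1 for the oxidation of aldehydes, and ACSS1 and ACSS2 for the activation of acetate. They were chosen by their role and not by their values, though with earlier results of these data known. All 10 were found by symbol among the 17208 genes measured in the nucleus accumbens core (NAcc) of 24 rhesus macaques, and 9 of them, all but CYP2E1, averaged 1 TPM or more and were tested. TPM, a unit that scales a gene's reads by its length and by the library's total, lets levels of different genes be compared.

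Ethanol is oxidized to acetaldehyde by alcohol dehydrogenases, by the peroxisomal enzyme catalase with hydrogen peroxide as the oxidant, and by the cytochrome P450 CYP2E1 in the endoplasmic reticulum. Acetaldehyde is oxidized to acetate mainly by aldehyde dehydrogenases, of which mitochondrial ALDH2 has the highest affinity for it, and acetate is then joined to coenzyme A by acyl-CoA synthetases. The liver carries most of this flux. In the brain, where the classical alcohol dehydrogenases are scarce, catalase and CYP2E1 are regarded as the main routes of local ethanol oxidation.

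RNA-Seq had been carried out on a small dissection of the NAcc core from unrelated adult male animals: 8 controls, 8 low or binge drinkers (LD*) and 8 heavy or very heavy drinkers (HD*), the last made up of 4 animals labelled HD and 4 labelled VHD. Drinkers had induced ethanol intake followed by a year of daily open access to ethanol and water, and no abstinence was imposed before necropsy. Controls went through the same induction and sessions with water alone and received a maltose dextrin solution to match calories, so no group was without the operant training, the induction or the housing. Mean daily intake was 1.58 ± 0.526 g/kg (SD, n = 8) in LD* animals and 3.14 ± 0.326 g/kg (SD, n = 8) in HD* animals. The animals chose their own intake, so the groups were not assigned at random, and they came from 4 cohorts that did not contain every group. The controls were 3 animals of cohort 5, 2 of cohort 7a and 3 of cohort 7b. The LD* animals were 2 of cohort 4, 3 of cohort 7a and 3 of cohort 7b, and the HD* animals were 4 of cohort 5 and 4 of cohort 7a.

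Markers of striatal projection neurons were present in all 24 libraries, but 1 library stood apart. In Control replicate 6 (cohort 7b) the dopamine receptor gene DRD1 was at 8.14 TPM against 53.4 to 274 TPM in the other 23 animals, and the astrocyte gene GFAP was at 6255 TPM, the highest value of the series. Its mean correlation with the other libraries was 0.877, against 0.933 to 0.967 for the rest. The comparisons with controls, the marker correlations and the member pairs are therefore also given without it. The tissue was dissected whole, so fewer cells of a type and less RNA per cell cannot be told apart in any of the values below.

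Among the enzymes that oxidize ethanol, ADH5 was the most abundant. ADH5 encodes the class III alcohol dehydrogenase, which acts chiefly on S-hydroxymethylglutathione and has a low affinity for ethanol. It was measured at a lowest, median and highest value of 102, 135 and 153 TPM in controls, of 105, 117 and 142 TPM in LD* animals and of 93.1, 117 and 174 TPM in HD* animals. These ranges overlapped almost entirely. Of the other alcohol dehydrogenases, ADH1B, ADH4 and ADH7 were near the floor of the table, each averaging 0.0226 TPM or less over the 24 animals. ADH1A, ADH1C and ADH6 were not found by symbol among the genes measured, so their levels are unknown here. CAT, the gene of catalase, ran at 16.7, 28.5 and 40.7 TPM in controls, 15.6, 22.6 and 38.1 TPM in LD* animals and 14.8, 19.8 and 44.4 TPM in HD* animals, again with full overlap. CYP2E1 was hardly present. It was listed at 0 in 1 control and in 1 HD* animal, its median over the 24 animals was 0.0938 TPM, and 22 of the animals were below 1 TPM. The exceptions were Control replicate 2 at 1.20 TPM and LD* replicate 4 at 3.75 TPM.

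**Figure D1:**
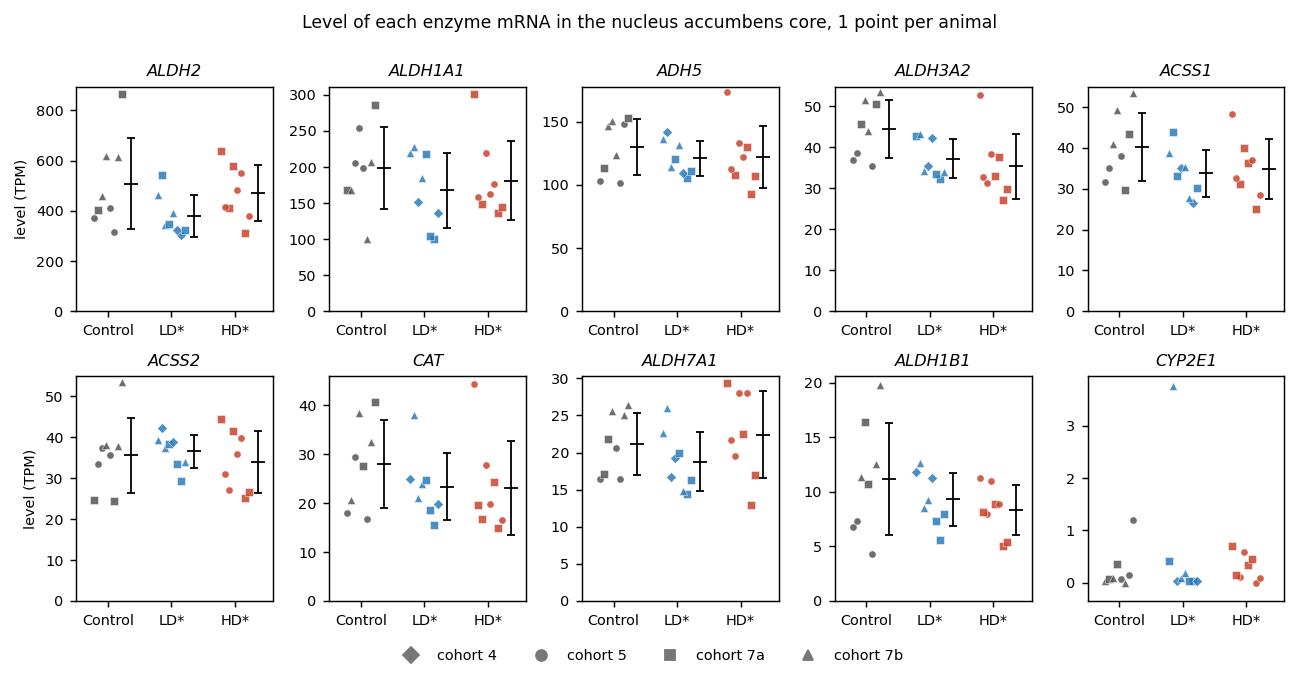
Level of each of the 10 mRNAs in TPM (vertical axis, separate scale per gene, genes ordered by mean) in every animal, by group; marker shapes give the cohort, and black bars give the group mean and SD over 8 animals (none is drawn for CYP2E1). The 3 groups overlap for every gene, ALDH2 reaches 865 TPM in 1 control, and CYP2E1 stays under 1 TPM in all but 2 animals.

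Of the 5 aldehyde dehydrogenases among the members, ALDH2 was the most abundant. Its lowest, median and highest values were 315, 435 and 865 TPM in controls, 304, 346 and 542 TPM in LD* animals and 311, 448 and 640 TPM in HD* animals. Its mean of 453 TPM over all animals was above that of 97.2% of the 13637 genes tested. Of the summed TPM of these 5 members, ALDH2 made up 52.9% to 76.4% in single animals, and ALDH1A1, a cytosolic enzyme that also makes retinoic acid, made up 12.5% to 35.7%. Aldehyde dehydrogenases outside the members are not in that sum. Among them ALDH5A1 averaged 79.0 TPM, ALDH9A1 64.6 TPM and ALDH6A1 60.7 TPM over all animals, above ALDH3A2, ALDH7A1 and ALDH1B1. ALDH1A1 ran at 101, 202 and 287 TPM in controls, 101, 168 and 227 TPM in LD* animals and 136, 161 and 301 TPM in HD* animals. Group accounted for 16.9% of the variance of the log2 level of ALDH2 and for 5.74% of that of ALDH1A1. ALDH3A2, the microsomal fatty aldehyde dehydrogenase, had ranges that overlapped less at their centres, with 35.3, 44.8 and 53.4 TPM in controls, 32.3, 34.8 and 43.2 TPM in LD* animals and 27.2, 32.8 and 52.8 TPM in HD* animals. All but 1 of the HD* animals were at 38.4 TPM or less, under the control median. ALDH7A1, which acts in lysine breakdown, averaged 20.8 ± 4.81 TPM (SD, n = 24), and the mitochondrial ALDH1B1 averaged 9.60 ± 3.59 TPM with a 4.61-fold range between animals, the widest of the 9 tested members.

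The acetate enzymes were expressed at similar levels. ACSS1, the mitochondrial acetyl-CoA synthetase, averaged 36.3 ± 7.45 TPM, and ACSS2, its cytosolic and nuclear counterpart, averaged 35.4 ± 6.98 TPM (SD, n = 24 for both). ACSS1 was the higher one in 13 of the 24 animals, so this pair had no stable order, and ALDH3A2 was above ACSS1 in only 17. Other neighbours in the order were better separated: ALDH2 was above ALDH1A1, ADH5 above ALDH3A2 and ALDH7A1 above ALDH1B1 in 24 of 24 animals, ALDH1A1 was above ADH5 and ACSS2 above CAT in 21, and CAT was above ALDH7A1 in 20.

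The first question was whether heavy drinking was accompanied by a different level of these enzymes. None of the 9 tested members passed an adjusted p of 0.05 in HD* animals against controls (limma on log2(TPM + 1), Benjamini-Hochberg adjusted over 13637 genes), and neither did any other gene (background 0% of 13637). The study's own model of read counts (DESeq2) did call genes here, and in HD* against LD* animals, at a false discovery rate under 0.05. It called none in LD* animals against controls, and no count model was run on the values used here. At an unadjusted p under 0.05 the background was 5.68%, and 1 of the 9 members was inside it. That member was ALDH3A2, with a mean of 35.3 ± 7.94 TPM in HD* animals and 44.5 ± 7.00 TPM in controls (SD, n = 8 each) and a difference of -0.33 ± 0.12 (SE, 95% interval -0.58 to -0.088, adjusted p = 0.706). Differences of the others were -0.30 ± 0.23 for ALDH1B1, -0.29 ± 0.21 for CAT, -0.20 ± 0.14 for ACSS1, -0.12 ± 0.21 for ALDH1A1, -0.091 ± 0.12 for ADH5, -0.071 ± 0.18 for ALDH2, -0.058 ± 0.14 for ACSS2 and 0.056 ± 0.16 for ALDH7A1. Although 8 of the 9 were negative, the median member difference of -0.12 equalled that of all tested genes, -0.12. After a TMM rescaling of the columns, which brought the median of all genes to 3.9e-05, the values for ADH5, ALDH2, ALDH1A1 and ACSS2 became positive, and ALDH3A2 stayed at -0.20. Without Control replicate 6, 0 genes passed, the ALDH3A2 difference was -0.29 and that of ACSS2 was 0.029, and the other 7 kept their sign.

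Marker scores, each the mean over a cell type's marker genes of log2(TPM + 1) centred on the animals, were set beside the ALDH3A2 difference. The astrocyte score was 0.18 ± 0.36 in controls and -0.054 ± 0.41 in HD* animals, and the oligodendrocyte score was 0.28 ± 0.68 and -0.084 ± 0.47 (SD, n = 8 each). Control replicate 6 had the highest control value of both scores, 0.68 and 1.61. The group difference in scores was not tested. ALDH3A2 correlated with these scores at r = 0.80 and 0.51 over the 24 animals. With both scores as covariates the ALDH3A2 difference was -0.20 (limma, adjusted p = 0.693), and that fit was not run without Control replicate 6.

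In LD* animals against controls, which share those controls with the first comparison, again 0 of the 9 members and 0% of all genes passed the adjusted threshold. The background at an unadjusted p under 0.05 was 2.84%, and 0 members were inside it. ALDH2 had the largest difference of the 9, with 380 ± 82.5 TPM in LD* animals and 507 ± 181 TPM in controls (SD, n = 8 each) and a difference of -0.37 ± 0.18 (SE, 95% interval -0.75 to 0.0056). ALDH3A2, which had the smallest unadjusted p of the members, differed by -0.24 ± 0.12 and ACSS1 by -0.23 ± 0.14, and the adjusted p was 1.00 for all members. The median member difference was -0.23, where that of all tested genes was -0.025. The astrocyte marker score was also lower in LD* animals, at -0.12 ± 0.37 against 0.18 ± 0.36 in controls (SD, n = 8 each). With the astrocyte and oligodendrocyte scores as covariates, the differences of ADH5, ALDH1B1, ALDH7A1 and CAT turned positive, at 0.013 to 0.13. Without Control replicate 6 the ALDH2 difference was -0.32 and that of ALDH3A2 -0.21, all 9 kept their sign, and 0 genes passed.

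HD* and LD* animals were then compared with each other. No member and 0% of all genes passed the adjusted threshold. The background at an unadjusted p under 0.05 was 1.08%, and 0 of 9 members were inside it. The 4 positive differences were 0.30 ± 0.18 for ALDH2, 0.22 ± 0.16 for ALDH7A1, 0.12 ± 0.21 for ALDH1A1 and 0.034 ± 0.14 for ACSS1, and the other 5 lay between -0.15 and -0.00089. With cohort as a covariate those 5, ADH5, ALDH1B1, ALDH3A2, CAT and ACSS2, were positive, at 0.019 to 0.30. That fit used the animals of all cohorts, but only cohort 7a held both drinking groups. Within cohort 7a the same 5 were negative, from -0.18 for ALDH3A2 to -0.0061 for ACSS2. In the fit without covariates every 95% interval of the 9 included 0, and the widest reached from -0.62 to 0.32 for ALDH1B1.

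**Figure D2:**
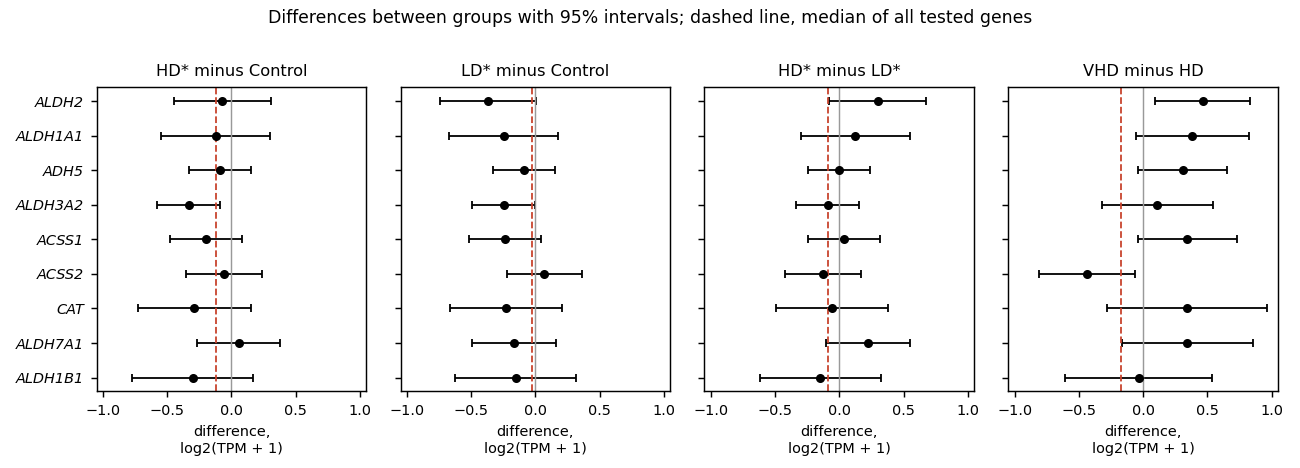
Difference in log2(TPM + 1) (horizontal axis) of the 9 tested members in 4 comparisons, with 95% intervals from the limma fit; the dashed line is the median over all 13637 tested genes. In HD* animals against controls only the interval of ALDH3A2 leaves out 0, the members scatter around the dashed line there, and in VHD against HD animals 7 of 9 members lie to the right of 0 while all genes have a median of -0.17; 4 members in the first panel, ADH5 and CAT in the third and ALDH1B1 in the last change sign after TMM rescaling.

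Within the HD* group, the 4 VHD animals differed from the 4 HD animals at many genes. At an adjusted p of 0.05, 14.6% of the tested genes passed, 441 higher and 1556 lower in VHD, whereas 0 of the 9 members did. At an unadjusted p under 0.05 the background was 32.7%, and 2 of 9 members were inside it. ALDH2 was at 551, 414, 578 and 640 TPM in the VHD animals and at 378, 481, 413 and 311 TPM in the HD animals. The VHD values were the higher ones except for 414 TPM, and the difference was 0.46 ± 0.17 (SE, adjusted p = 0.0852). ACSS2 went the other way, with 27.0, 36.0, 26.6 and 25.3 TPM in VHD animals and 31.0, 39.8, 41.5 and 44.4 TPM in HD animals and a difference of -0.44 ± 0.17 (adjusted p = 0.103). Only the VHD value of 36.0 TPM, from HD* replicate 4, lay inside the HD range. Without that animal ALDH2 was at 0.59 (adjusted p = 0.0133) and ACSS2 at -0.55 (adjusted p = 0.0206), both past the threshold. On that fit 34.1% of all tested genes passed, against these 2 of 9 members.

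Cell type markers and scaling moved with this comparison. The neuron marker score was 0.28 ± 0.056 in HD animals and -0.46 ± 0.48 in VHD animals (SD, n = 4 each), and the ranges of the 2 categories, 0.23 to 0.36 and -0.97 to 0.086, did not overlap. The score of striatal projection neurons was also apart, at 0.59 to 0.86 in HD and -0.77 to -0.028 in VHD animals, as was the endothelium score. The astrocyte score was -0.31 ± 0.28 in HD and 0.20 ± 0.37 in VHD animals, with overlap. Their part in the member differences was not tested with 4 animals a category. TMM rescaling raised the median of all genes from -0.17 to 0.0048 and the split of calls from 441 higher and 1556 lower to 1180 higher and 1416 lower. On that scale ADH5, at 0.51 (adjusted p = 0.0178), and ACSS1, at 0.54 (adjusted p = 0.0232), passed the threshold, 2 of 9 members where 2596 of the 13637 tested genes passed, while ALDH2 at 0.67 had an adjusted p of 0.0963 and ACSS2 at -0.24 one of 0.229. The count of genes called depended strongly on single animals, with 476 to 1094 genes without HD* replicate 2, 3, 5, 6 or 7 and 4651 without HD* replicate 4.

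Cohort was examined because it was unevenly spread over the groups. With group in the model, 0% of the tested genes and none of the 9 members differed between cohorts at an adjusted p of 0.05. At an unadjusted p under 0.05 the background was 8.36%, and 1 member was inside it, ALDH1B1 (adjusted p = 0.540). Cohort alone accounted for 8.55% to 28.6% of the variance of a member's log2 level, highest for ALDH1B1, and group alone for 3.56% to 29.5%, highest for ALDH3A2.

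The HD* difference could be read separately in cohorts 5 and 7a. ALDH1B1 was at 7.33, 6.79 and 4.30 TPM in the controls of cohort 5 and at 7.95, 11.0, 8.94 and 11.3 TPM in its HD* animals. In cohort 7a it was at 10.7 and 16.4 TPM in controls and at 5.03, 8.19, 8.89 and 5.38 TPM in HD* animals. So every HD* animal was above every control in cohort 5 and below every control in cohort 7a, with mean log2 differences of 0.61 and -0.89. CAT had mean differences of 0.28 in cohort 5 and -0.82 in cohort 7a, and ALDH3A2 of 0.041 and -0.58. For both genes the groups overlapped in cohort 5 and were apart in cohort 7a, where the controls had 27.6 and 40.7 TPM of CAT against 14.8 to 24.2 TPM in HD* animals, and 45.5 and 50.6 TPM of ALDH3A2 against 27.2 to 37.5 TPM. ACSS2 was at 24.6 and 24.3 TPM in the 2 controls of cohort 7a, below all 4 HD* animals of that cohort (25.3 to 44.4 TPM), and overlapped in cohort 5. LD* animals of cohort 7a were also apart from its 2 controls for all of these genes. Their differences were -0.85 for ALDH1B1, -0.77 for CAT, -0.41 for ALDH3A2 and 0.44 for ACSS2. HD* and LD* animals of that cohort overlapped, with differences of -0.040, -0.052, -0.18 and -0.0061. The separations in cohort 7a thus set its 2 controls apart from all its drinkers. The share of all tested genes with groups apart within a cohort was not counted, so these separations are descriptions only.

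**Figure D3:**
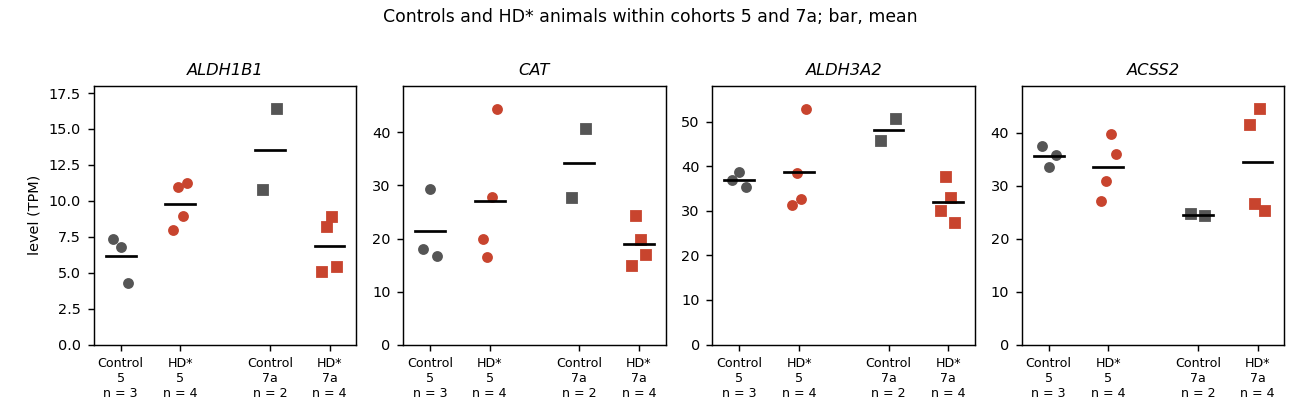
Level in TPM (vertical axis, from 0) of ALDH1B1, CAT, ALDH3A2 and ACSS2 in controls (grey) and HD* animals (red) of cohorts 5 and 7a; points are animals and bars are means. ALDH1B1 is higher in HD* animals in cohort 5 (means 9.78 and 6.14 TPM) and lower in cohort 7a (means 6.87 and 13.6 TPM), without overlap in either. LD* animals of cohort 7a, not drawn, are also apart from its controls for each gene shown. The share of all tested genes without overlap was not counted.

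The difference of these differences was tested as an interaction. For ALDH1B1 it was -1.50 ± 0.38 (SE, 95% interval -2.32 to -0.69), for CAT -1.10 ± 0.47 and for ALDH3A2 -0.63 ± 0.28. These were 3 of the 9 members at an unadjusted p under 0.05, where the background was 2.16%, but none of them and 0% of all genes passed the adjusted threshold (limma, adjusted p = 1.00). Over all genes the number passing was 14 without Control replicate 7 and 1 without Control replicate 2. The fit without Control replicate 7 has 1 control left in cohort 7a, which is assumed to vary like the animals of the other groups. Only 2 controls stood behind cohort 7a. The astrocyte marker score followed the same pattern, with -0.068 in controls and 0.16 in HD* animals of cohort 5 and 0.15 and -0.26 in cohort 7a, and its part in the interaction was not tested. For LD* animals the cohort differences ran in parallel for ALDH3A2, at -0.41 in both cohorts 7a and 7b, and in opposite directions for ALDH1A1 at -0.72 and 0.46. LD* animals and controls did not overlap for ALDH3A2 in either cohort, and the share of all tested genes without overlap was not counted.

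Among drinkers, intake and blood ethanol could be set against each member with the drinking group held constant. For daily intake, 0% of all genes and no member passed the adjusted threshold. At an unadjusted p under 0.05 the background was 8.12%, and 1 of 9 members, ALDH2, was inside it, with a slope of 0.40 ± 0.17 per g/kg (SE, n = 16, adjusted p = 0.498). Over the 8 LD* animals ALDH2 correlated with intake at r = 0.60 and rho = 0.75 (exact permutation p = 0.110 for r), and over the 8 HD* animals at r = 0.56 and rho = 0.74 (exact permutation p = 0.145). Without the 2 animals farthest from the median intake these were 0.36 and 0.49. The neuron marker score, with which ALDH2 correlated at r = -0.79 over the 24 animals, had r = -0.64 and rho = -0.85 with intake in LD* animals (exact permutation p = 0.105 for r) and r = -0.44 and rho = -0.67 in HD* animals (exact permutation p = 0.274). Its part in the ALDH2 slope was not tested. ACSS2 had negative coefficients in both groups, r = -0.54 and -0.49 (exact permutation p = 0.169 and 0.218). All adjusted p of the 36 correlations of members with intake and blood ethanol were 0.189 or more.

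The study sampled blood ethanol repeatedly during the open-access year, partway through the daily session, and found trace or no ethanol at necropsy. It states that these values need not reflect total daily intake. For blood ethanol, which the study lists for 15 of the 16 drinkers, 0.0147% of all genes passed the adjusted threshold. These were IQSEC3, which acts at inhibitory synapses, and PDZRN4, named here after their values were seen, with slopes of 0.20 ± 0.030 and 0.20 ± 0.031 per 10 mg/dL. No member was among them. The background at an unadjusted p under 0.05 was 18.1%, and 5 of 9 members were inside it, ADH5, ALDH1A1, ALDH7A1, CAT and ACSS1, all with positive slopes. ADH5 had the smallest error relative to its slope, 0.099 ± 0.023 per 10 mg/dL (SE, 95% interval 0.050 to 0.15, adjusted p = 0.0856). CAT had 0.15 ± 0.051, ALDH1A1 0.13 ± 0.051, ALDH7A1 0.096 ± 0.045 and ACSS1 0.080 ± 0.036, and 8 of the 9 slopes were positive. The correlation of ADH5 with blood ethanol was r = 0.89 and rho = 0.86 in 7 LD* animals (exact permutation p = 0.0105 for r) and r = 0.86 and rho = 0.83 in 8 HD* animals (exact permutation p = 0.00702), each with an adjusted p of 0.189. Without the 2 animals farthest from the median it was 0.67 and 0.41. Leaving out the ends of the blood ethanol range can by itself lower r. The fall therefore cannot show how far the relation rested on those 2 animals.

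Cohort and cell type markers were also set beside the blood ethanol slopes, and the spread of blood ethanol over cohorts was not examined. No cohort held 6 drinkers of 1 group, so no correlation could be given within cohorts. With cohort as a covariate the ADH5 slope was 0.11 (adjusted p = 0.175). The astrocyte score correlated with blood ethanol at r = 0.67 in LD* animals (exact permutation p = 0.108) and at r = 0.85 in HD* animals (exact permutation p = 0.00747, adjusted p = 0.0896 over 24 score correlations). With the astrocyte and oligodendrocyte scores as covariates the ADH5 slope was 0.044 and that of CAT 0.0026 (adjusted p = 1.00 for both), and 0 genes passed. Without HD* replicate 6 the ADH5 slope was 0.11 with an adjusted p of 0.0118, and the number of genes passing was 1073, or 7.87%. That number was 26 without HD* replicate 1, 6 without LD* replicate 6, 2 without LD* replicate 5 or HD* replicate 8, and 0 without any other single animal.

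The members' levels were then set against the marker scores of 6 cell types, which gave 54 correlations for the 9 tested members over the 24 animals. Of these, 28 had an adjusted p under 0.05 (permutation test with 100000 resamples, Benjamini-Hochberg over the 54), 17 of them positive with the glial scores. ADH5 followed the astrocyte score most closely, with r = 0.91 and rho = 0.90 (p = 1e-05, the smallest these permutations can give, adjusted p = 0.000108), and r = 0.89 without the 2 animals farthest from the median score. Only 12 of the 13637 tested genes, itself and the markers included, had an r as high. ACSS1 (r = 0.87), CAT (0.81), ALDH3A2 (0.80), ALDH1B1 (0.63), ALDH7A1 (0.62) and ALDH2 (0.54) also passed, and ALDH1A1 (r = 0.40) and ACSS2 (r = -0.082) did not. That made 7 of 9 members against a background of 22.9% of all tested genes with an r of 0.46 or more. The median r was 0.63 over the members and 0.048 over all tested genes.

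The same 7 members passed with the microglia score, where the background was 17.1% and the highest r was 0.80 for ADH5. With the oligodendrocyte score 3 passed, CAT (r = 0.59), ALDH3A2 (0.51) and ACSS1 (0.48), with a background of 12.7%. With the score of striatal projection neurons 7 members had negative coefficients that passed, from -0.74 for ACSS1 to -0.52 for ALDH7A1, and the background of negative ones was 20.4%. None passed with the endothelium score, where ADH5 was at -0.45 (adjusted p = 0.0502). In deviations from a fit of group and cohort 3 did, ADH5 (-0.66), ALDH2 (-0.58) and ACSS1 (-0.53), and without Control replicate 6 ADH5 did (-0.51). The share of all tested genes was not computed in these settings, so the counts cannot be set against a background. Scores are not independent of each other in TPM, since a larger share of 1 cell type leaves a smaller share for the rest.

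**Figure D4:**
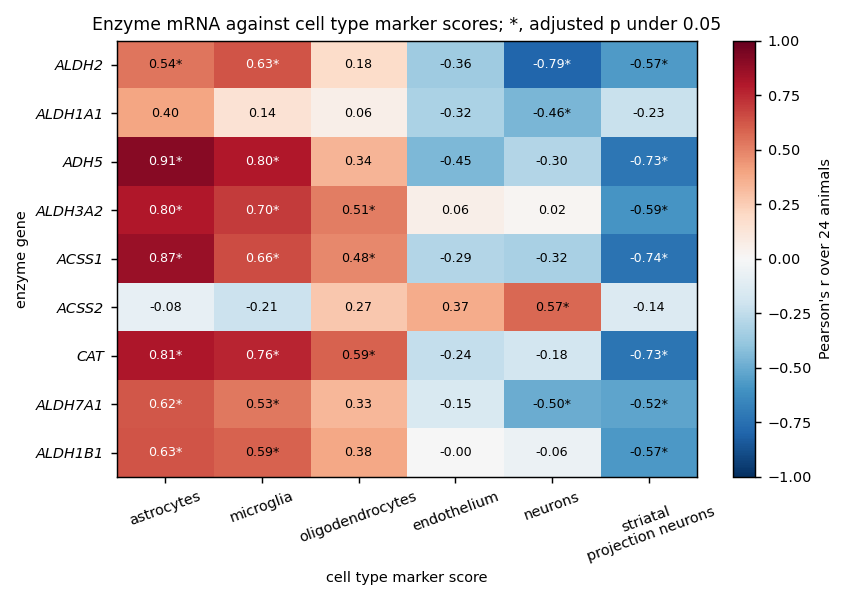
Pearson's r over 24 animals between each tested member (rows) and each cell type marker score (columns), with an asterisk where the adjusted p over the 54 pairs is under 0.05. ADH5, ACSS1, CAT and ALDH3A2 have their highest r with astrocytes (0.80 to 0.91), ALDH2 its most negative one with neurons (-0.79), and ACSS2 is the only member with a positive r that passed for neurons (0.57); after TMM rescaling 7 members pass with a negative r for neurons and ACSS2 does not pass.

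The relation to the general neuron score, which rests on synaptic and GABA genes such as SNAP25 and GAD1, depended on the scaling. In TPM as deposited ALDH2 had r = -0.79 and rho = -0.85 (adjusted p = 0.000162), r was -0.85 without the 2 animals farthest from the median score, and 1.92% of all tested genes had an r as low. ALDH7A1 (r = -0.50) and ALDH1A1 (r = -0.46) passed as well, so 3 of 9 members passed with a negative sign against a background of 8.39%. ACSS2 had r = 0.57 and rho = 0.59 (adjusted p = 0.00937) and r = 0.54 without the farthest 2. This was no unusual value, since 41.5% of the tested genes were as high or higher. After TMM rescaling 7 of 9 members passed with a negative sign: ALDH2 (-0.86), ADH5 (-0.85), ACSS1 (-0.82), ALDH7A1 (-0.74), ALDH3A2 (-0.67), CAT (-0.63) and ALDH1A1 (-0.56), where 20.1% of all tested genes were at -0.56 or lower. ADH5 had been at -0.30 before rescaling and ALDH3A2 at 0.017. The ACSS2 value became 0.17 (adjusted p = 0.506), and ADH5 with astrocytes stayed at 0.91. In deviations from a fit of group and cohort, ADH5 with astrocytes was at 0.91, ALDH2 with neurons at -0.78 and ACSS2 with neurons at 0.68. Without Control replicate 6, ADH5 with astrocytes was at 0.91, ALDH2 with neurons at -0.80 and ACSS2 with neurons at 0.69, and 25 of the 54 pairs passed.

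**Figure D5:**
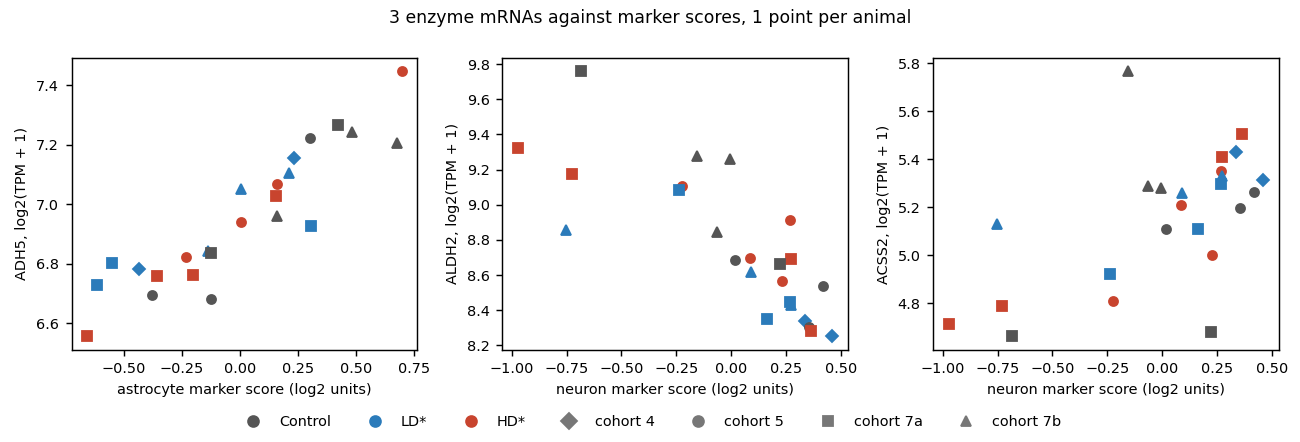
log2(TPM + 1) of ADH5 against the astrocyte marker score and of ALDH2 and ACSS2 against the neuron marker score, 1 point per animal, coloured by group and shaped by cohort. ADH5 rises along the astrocyte score (r = 0.91), ALDH2 falls along the neuron score (r = -0.79), and the highest ACSS2 point is Control replicate 6 at 53.4 TPM.

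The members were also compared in pairs. Of the 36 pairs of members, 32 had a positive r over the 24 animals, the median r was 0.41, and 14 pairs passed an adjusted p of 0.05 (permutation test), all of them positive. Those 14 pairs, with an r of 0.48 or more, are 38.9% of the member pairs, and 25.1% of all pairs of tested genes had an r as high, with a median of 0.18. After TMM rescaling 21 member pairs and 14.1% of all gene pairs were as high, and without Control replicate 6 these were 11 pairs and 27.0%. The highest were ADH5 with CAT (r = 0.84), ALDH3A2 with CAT (0.81), ADH5 with ACSS1 (0.78) and ALDH3A2 with ACSS1 (0.76), and without the 2 animals farthest from the median these were at 0.66 to 0.77. ACSS2 passed with no other member, and its lowest r was -0.44 with ALDH2. The 2 acetate enzymes, mitochondrial ACSS1 and cytosolic ACSS2, had r = 0.024.

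Among all genes averaging 10 TPM or more, the gene most like each member over the 24 animals was found by Pearson's r. For ADH5 it was GATM, which makes a precursor of creatine (r = 0.95), followed by WBP5 and CISD2 (0.92 each). CAT was most like RHOA (0.93), ALDH3A2 most like EPS8 (0.93), and ACSS1 most like PLD2, a phospholipase D gene (0.92). ALDH2 was most like PBXIP1 and CIB1 (0.89 each), ACSS2 most like APBB1, which encodes an adaptor of the amyloid precursor protein (0.84), and ALDH1B1 most like ARHGEF40 (0.81), with the astrocyte gap junction gene GJB6 as the second (0.78). ALDH7A1 was most like the growth factor gene FGF1 (0.78). ALDH1A1 had the loosest match, with ZC3H7B at r = 0.70.

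Other genes of the pathway were counted as whole lists. Of 14 other aldehyde dehydrogenases 11 were tested, and in HD* animals against controls 0 passed the adjusted threshold. The smallest p were those of ALDH6A1, of valine breakdown, at -0.29 ± 0.12, and ALDH4A1, of proline breakdown, at -0.36 ± 0.24 (SE). Of 9 other acetate and acetyl-CoA enzymes 8 were tested and 0 passed, with ACAT1 at -0.12 ± 0.083 and DLAT at -0.23 ± 0.18 closest. All 10 peroxisomal genes were tested and 0 passed, with SCP2 at -0.16 ± 0.087 and HSD17B4 at -0.28 ± 0.17 closest. The 3 electron donors of P450 enzymes gave 0 calls, with CYB5R3 at -0.068 ± 0.096 and CYB5A at -0.069 ± 0.13. Of 4 genes for non-oxidative ethanol products, the phosphatidylethanol-forming PLD1 and PLD2 and the carboxylesterases, 3 were tested and 0 passed, with PLD1 at -0.41 ± 0.18 and PLD2 at -0.33 ± 0.20. The medians of these 5 lists were -0.14, -0.11, -0.13, -0.068 and -0.33, next to -0.12 over all genes. None of the lists had a call in the LD* comparison or in HD* against LD*. In VHD against HD animals, where 14.6% of all genes passed, 2 list genes did, both lower in VHD: PDHA1, a subunit of pyruvate dehydrogenase, at -0.58 ± 0.15 (adjusted p = 0.0260), and POR, which passes electrons to P450 enzymes such as CYP2E1, at -0.74 ± 0.16 (adjusted p = 0.0135).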

How the data were processed

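RNA-Seq data of 24 NAcc core samples, 1 per animal, were analysed. Per the study's methods, reads were aligned to the MacaM assembly with STAR 2.5.2b, keeping uniquely mapped reads, and summarized per gene with HTSeq 0.6.1p1 before the authors' DESeq2 models. The deposited values carry the name of normalized counts but were read as TPM. Their column sums are the same in each library to within rounding, which alone does not show scaling by gene length. However, 13637 genes average 1 or more, the number that the study gives for its threshold of 1 TPM. They were made by the authors from those counts with gene lengths not given in the sources used here. Depth per library is therefore unknown, no counting interval was computed, and no count model was run. The library's strand and read pairing are described differently in the sources.

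Groups came from the labels, and replicate numbers only name animals. From the TPM values, log2(TPM + 1) of the 13637 genes averaging 1 TPM or more was fitted with limma 3.58.1 in R 4.3.3 (intensity trend in the prior variance), with 3 groups in 1 model and p adjusted by Benjamini-Hochberg over all genes tested. HD and VHD, cohort, the cohort interaction and the slopes had fits of their own. Blood ethanol was read from the study's listing of the animals and used only as a covariate. Correlations used exact permutations for 7 or 8 animals and 100000 resamples for 24 (numpy 2.4.6, scipy 1.17.1), and TMM factors were computed from the TPM columns. The limma steps were tested on simulated data. The members, lists and markers were chosen with earlier results of these data known. Named genes were the members, list genes past the threshold or the 2 of each list with the smallest p in HD* against controls, and the 3 genes most like each member.

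Alternatives were other pseudocounts (0.1 and 8), other filters (10 TPM or none), TMM rescaling, cohort or marker scores as covariates, subsets of groups or cohorts, and leaving out each animal. The cohort and marker covariates of the slopes, the left-out animals of the slopes and of the interaction, and the marker correlations without Control replicate 6, and the member pairs after TMM rescaling or without that animal, were added after seeing the data. P-values measure the spread between these animals. No per-sample column of the table was left out, and no sequence or coordinate is given, since no genome of the build used was at hand.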

Additional observations from a re-analysis of the deposited data

Results flagged for a closer look

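Single animals lay far from the rest of their group, by Dixon's ratio of gap to range, in 6 of the 50 sets of 4 to 8 animals examined. The limit is one that about 1 in 20 separate sets of normal values would pass. The sets here shared animals, and held correlated genes and values near the floor. The count can therefore not be read as an excess over that rate. HD* replicate 4 (cohort 5, VHD) accounted for 3 of them: ALDH3A2 was at 52.8 TPM against 27.2 to 38.4 TPM in the other HD* animals, CAT at 44.4 TPM against 14.8 to 27.8 TPM, and ACSS2 at 36.0 TPM against 25.3 to 27.0 TPM in the other VHD animals. This animal also had the highest astrocyte score of the HD* group, 0.69, and the part of that in the values was not tested. LD* replicate 4 (cohort 7b) had CAT at 38.1 TPM against 15.6 to 25.0 TPM in the other LD* animals, and CYP2E1 at 3.75 TPM against 0.0321 to 0.405 TPM. Control replicate 2 (cohort 5) had CYP2E1 at 1.20 TPM against 0 to 0.365 TPM in the other controls.

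ALDH1B1 was picked because its HD* animals and controls were apart in opposite directions in the 2 cohorts that could be compared. The test of that difference gave -1.50 ± 0.38 (SE, limma, unadjusted p = 0.00152, adjusted p = 1.00 over 13637 genes). It used the same animals as the choice of the gene, so it is no separate support.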

How the results depend on the processing

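Of the members' differences and slopes, 364 of 398 values under other settings and 866 of 900 with 1 animal left out kept their direction and their side of the threshold. TMM rescaling reversed the HD* difference from controls of ADH5 (0.043), ALDH2 (0.063), ALDH1A1 (0.012) and ACSS2 (0.073), the HD* difference from LD* of ADH5 (0.087) and CAT (0.025), ALDH1B1 in VHD against HD (0.14), ALDH1A1 between cohorts (0.043) and the intake slope of ALDH3A2 (0.035). Cohort as a covariate reversed ALDH2 (0.00050) and ACSS2 (0.060) against controls in HD* animals. In HD* against LD* it reversed ADH5 (0.074), ALDH1B1 (0.30), ALDH3A2 (0.019), CAT (0.084) and ACSS2 (0.039). Within cohort 7a, the only cohort with both drinking groups, the genes reversed in HD* against LD* were negative. Marker scores as covariates reversed ADH5 (0.037) and ALDH2 (0.029) in HD* against controls, ADH5 (0.076), ALDH1B1 (0.12), ALDH7A1 (0.013) and CAT (0.13) in LD* against controls, ACSS1 (-0.013) in HD* against LD*, the intake slopes of ADH5 (-0.021) and CAT (-0.14) and the blood ethanol slopes of ALDH2 (-0.047), ALDH3A2 (-0.027), ACSS1 (-0.032) and ACSS2 (0.032). Cohorts with both groups alone gave ALDH2 0.026 and ACSS2 0.13 in HD* against controls and ACSS1 -0.11 in HD* against LD*. With 1 animal left out, sign changes gave ranges of -0.16 to 0.049 for ALDH2, -0.0045 to 0.16 for ALDH7A1 and -0.13 to 0.029 for ACSS2 in HD* against controls, -0.0014 to 0.16 for ACSS2 in LD* against controls, and -0.076 to 0.052 for ADH5, -0.20 to 0.045 for CAT and -0.036 to 0.096 for ACSS1 in HD* against LD*. In VHD against HD they were -0.24 to 0.13 for ALDH1B1 and -0.070 to 0.24 for ALDH3A2. For the cohort interaction they were -0.44 to 0.33 for ALDH1A1 and -0.44 to 0.087 for ACSS1. For intake they were -0.014 to 0.31 for ADH5 and -0.13 to 0.0045 for ALDH3A2. Counts over all genes ranged from 476 to 4651 in VHD against HD, 0 to 14 between cohorts, 0 to 1 for intake and 0 to 1073 for blood ethanol, where TMM rescaling, the cohort covariate and the marker covariates each gave 0. Where these values moved, the cause was not tested.

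Of the 28 marker correlations, TMM rescaling took those of ALDH2 (-0.34) and ALDH7A1 (-0.36) with projection neurons, ACSS2 with neurons (0.17) and ACSS1 with oligodendrocytes (0.44) below the threshold. It brought ADH5 (-0.85), ALDH3A2 (-0.67), CAT (-0.63) and ACSS1 (-0.82) with neurons and ALDH1A1 with astrocytes (0.55) past it, for 29 in all. Deviations from group and cohort gave 29 as well, and leaving out Control replicate 6 gave 25. For these alternatives the share of all tested genes was computed only for the neuron score after TMM rescaling. No paired analysis was possible because replicate numbers follow the order of the samples and pair no animals. Read depth is unknown, so the counting error of weak genes such as CYP2E1 is unknown too.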
